A study of Mus musculus with 4 samples.

Results

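The ribosomal protein genes encode the proteins of the cytoplasmic ribosome, and they were followed here through the H3K27ac-marked chromatin contacts of their start sites in mouse embryonic stem cells. The members were the protein-coding autosomal genes of GENCODE M21 whose symbols begin with Rpl or Rps and a digit, together with Rpsa, Rplp0, Rplp1 and Rplp2. Kinases of the Rps6k family, pseudogenes and symbols ending in l, such as Rpl22l1, were left out. The rule found 75 genes of 20807 protein-coding autosomal genes, 43 of the large subunit, 30 of the small subunit and 2 that are no subunits by name (Rps19bp1, which encodes a binding protein of Rps19, and Rps27rt, a retrogene). The 4 X-linked genes Rpl10, Rpl36a, Rpl39 and Rps4x fell outside the rule. The rule itself uses no measured value, but the members were chosen with earlier results of these data known.

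The study compared 2 inbred strains. The B6 libraries came from the C57BL/6J lines B6 4-1 (replicate 1) and B6 5-1 (replicate 2), and the D2 libraries from the DBA/2J lines D2 2-9 (replicate 1) and D2 5-5 (replicate 2). Each line gave 1 library and carried no stated allele beyond its strain. All lines grew in serum medium with LIF, the MEK inhibitor PD0325901 and the GSK3 inhibitor CHIR99021, and no other treatment is stated. HiChIP ligates DNA ends that lie close together in fixed nuclei and then enriches the ligated fragments with an antibody, here against H3K27ac, the acetylation of histone H3 at lysine 27 that marks active promoters and enhancers. The deposited counts are read pairs that join 2 genomic intervals called anchors, and each such pair of anchors is called a loop. Each strain was represented by 2 lines with 1 library each. The p-values thus set a strain difference against the spread between libraries, where line and library preparation cannot be told apart.

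Ribosomal protein genes are among the most highly transcribed genes of a growing cell. Their transcripts mostly begin at a C within a run of pyrimidines, the terminal oligopyrimidine (TOP) tract, through which the mTOR pathway and Larp1 control their translation. Their promoters are short, rich in CG and known for sites of ETS factors such as GABP, of YY1 and of SP1. Many of these genes also carry small nucleolar RNAs, which guide the modification of ribosomal RNA, in their introns, and 28 of the 75 did so in the annotation. Embryonic stem cells divide fast and need a steady supply of ribosomes.

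Of the 75 genes, 71 had an anchor over at least 1 of their start sites. Rpl11 and Rps14 had 2 anchors each, which gave 73 anchors among 56562. No anchor lay over a start site of 4 genes, among them Rpl3, Rpl13a and Rps27rt, whose nearest anchors were 54605, 19755 and 1895 bp away. Chromosome 7 held 14 of the genes, and chromosomes 9 and 11 held 7 each. The anchors took part in 8067 loops of 1513030, of which 1565 had at least 20 counts over the 4 libraries and were tested. Only 9 loops joined anchors of ribosomal protein genes to each other.

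Sharing of anchors limits what can be ascribed to a single gene. The ribosomal protein anchors had a median width of 16434 bp, against 6130 bp for the other 14893 anchors over a protein-coding start site. Of the 73 anchors, 45 (61.6%) also lay over the start of another protein-coding gene, against 14.1% of the others that covered 2 or more. A contact of such an anchor cannot be assigned to 1 of its genes. The anchor of Rps18 is the extreme case, with Daxx, Tapbp, Rgl2, Vps52 and 6 more named starts in the same interval.

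The promoters were examined first, because the members share a textbook promoter type. RefSeq windows of 300 bases (GRCm38.p6, 250 before to 50 after a start) matched 55 of the 75 genes, and 15687 protein-coding promoters of the same length gave the background. Letters were searched on both strands, except for the pyrimidine run, and a match is a run of letters and no proof of binding. CCGGAAG, the core letters of ETS sites, occurred in 22 ribosomal protein promoters (40%) and in 12.6% of all. AAGATGG, letters of YY1 sites, occurred in 8 (14.5%) and in 6.42% of all. GGGCGG, letters of SP1 sites, occurred in 32 (58.2%) and in 48.8% of all. TATAAA, letters of the TATA box, occurred in 3 (5.45%), those of Rplp0, Rps2 and Rps28, and in 12.9% of all. A run of at least 6 pyrimidines within 5 bases of the start on the sense strand was present in 28 (50.9%) and in 20.8% of all. These searches rest on the RefSeq start. It lay within 50 bp of the GENCODE start in 35 of the 55 genes and in 10275 of the 15687. For Rps2 it lay 1947 bp away and for Rpl18 2614 bp, so some windows may miss the start in use. The median GC content was 59% for these promoters and 57.3% for all. The median number of CG dinucleotides per 100 bases was 7.33 for these promoters and 5 for all.

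The following 5 windows are shown because their genes carry the largest change or the extreme levels described below: Rps7 and Rpl37 were the most lowered and the most raised in D2, Rpl34 was both low and changed, and Rpl19 and Rps16 were among the most contacted. Each runs 5′ to 3′ on the gene's own strand from 90 bases before to 20 after the outermost annotated start, and capitals mark matches to the motifs above or the pyrimidine run. The positions are chr12:28635934-28636043 (minus strand) for Rps7, chr15:5116523-5116632 (plus) for Rpl37, chr3:130730379-130730488 (minus) for Rpl34, chr11:98026620-98026729 (plus) for Rpl19 and chr7:28350562-28350671 (plus) for Rps16.
Rps7: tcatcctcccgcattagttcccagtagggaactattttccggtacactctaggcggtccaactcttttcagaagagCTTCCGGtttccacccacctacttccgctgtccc
Rpl37: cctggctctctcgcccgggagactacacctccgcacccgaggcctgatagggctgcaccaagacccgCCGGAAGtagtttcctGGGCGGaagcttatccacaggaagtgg
Rpl34: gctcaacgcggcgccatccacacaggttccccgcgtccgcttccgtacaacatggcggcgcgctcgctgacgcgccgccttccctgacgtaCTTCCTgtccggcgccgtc
Rpl19: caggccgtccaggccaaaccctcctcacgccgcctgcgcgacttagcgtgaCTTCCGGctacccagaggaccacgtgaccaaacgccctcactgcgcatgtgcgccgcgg
Rps16: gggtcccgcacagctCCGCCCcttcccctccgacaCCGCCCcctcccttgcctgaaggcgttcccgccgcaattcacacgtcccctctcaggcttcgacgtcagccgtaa

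The Rps7 and Rpl19 windows hold the ETS letters as CTTCCGG, read from the opposite strand, and Rpl37 holds them as CCGGAAG beside GGGCGG. Rps16 has the SP1 letters, as CCGCCC, in 2 places of its window. In Rpl34 the marked run CTTCCT begins just after the annotated start. Genes with and without the ETS letters had similar contact levels per kb, with medians of 8.94 CPM per kb over 22 genes and 9.22 over 31, and median log2 differences between strains of 0.08 and 0.15. Genes with the pyrimidine run had a median of 8.94 CPM per kb over 26 genes, and those without it 9.22 over 27. The shares and medians are descriptions without a test.

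The libraries held between 2767882 and 2944258 counts. D2 replicate 1, whose library name carries the mark 10cyc where the other 3 carry 8cyc, stood apart in several values given below. Among the markers of embryonic stem cells, 7 of 10 genes had an anchor over a start site, Pou5f1, Nanog and Sox2 among them, and their summed level was 54.8 and 58.3 CPM per kb in B6 and 87.9 and 54.3 in D2. By the edgeR test used below, 2 of these 7 anchors passed, both higher in D2, beside 9.85% of coding-start anchors in either direction. They were Nanog (log2 0.68, edgeR adjusted p 0.026) and Sox2 (0.62, 0.018), and DESeq2 called 0 of the 7. Esrrb, Tfcp2l1 and Klf2 had no anchor over a start site. Of the feeder fibroblast markers only Thy1 and Lum of 6 had one, with a summed level between 3.18 and 5.33 CPM per kb. Primitive endoderm markers summed to 20.6 to 22.7 CPM per kb over 5 of 6 genes, and formative markers to 19.4 to 21 over 4 genes. Anchors were found over 0 of 4 genes of the 2-cell-like list. The part of these differences in the results below was not tested.

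Ribosomal protein anchors were well-contacted start sites. Levels are CPM, counts scaled to a common library size by totals and normalization factors, and are compared between genes per kb of anchor. The median of the 73 anchors was 9.22 CPM per kb (quartiles 5.55 and 13.5), against 5.77 (3.39 and 8.95) for the other anchors over a coding start, and 53 of 73 lay above that latter median. Width went along with this. Among anchors between 13553 and 23875 bp wide, the middle of the ribosomal protein range, 37 of them had a median of 7.44 CPM per kb and 1718 others one of 7.09. An anchor of this family had a median of 18 tested loops, against 4 for the others, without matching for width. The large-subunit anchors had a median of 9.91 CPM per kb (n = 42 anchors) and the small-subunit anchors one of 7.84 (n = 30).

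Rpl19 and Rpl23, both of the large subunit and about 250 kb apart on chromosome 11, had the highest levels. Rpl19 (chr11:98020688-98034051) gave 22.0 and 18 CPM per kb in the B6 libraries and 23.7 and 18.5 in the D2 libraries. Rpl23 (chr11:97770381-97784846) gave 17.5 and 16.0 in B6 and 22.6 and 17.9 in D2. In both genes D2 replicate 1 was the highest library. The small-subunit gene Rps16 followed with 16.4 and 14.4 in B6 and 21 and 16.7 in D2, and Rps15 with 15.5, 15.4, 18.9 and 17.2. Among the next genes, the mean levels of Rpl41, Rpl10a, Rpl27 and Rplp2 lay between 15.1 and 16.5 CPM per kb. Rplp2 belongs to the acidic stalk, which recruits translation factors to the ribosome.

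At the low end, the small-subunit gene Rps23 gave 2.49 and 2.05 CPM per kb in B6 and 2.18 and 1.18 in D2. Rps20 gave 2.07 and 1.98 in B6 and 3.19 and 2.1 in D2, and Rps12 gave 2.43 and 2.63 in B6 and 3.49 and 2.47 in D2. Rpl15 (mean 3.05) and Rpl34 (mean 3.30) came next. The highest level was 10.4 times the lowest. In 0 of 70 neighbouring pairs among 71 genes did the gap exceed the standard deviation of the 4 libraries in both. That standard deviation includes shifts between whole libraries. Compared within each library, Rpl19 lay above Rpl23, Rpl23 above Rps16, Rpl7a above Rpl8, Rps13 above Rps19 and Rps12 above Rps20. The other neighbouring pairs did not keep their order in each library, and no step was tested. The range as a whole, from Rps23 to Rpl19, exceeded the standard deviations many times over.

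**Figure D1:**
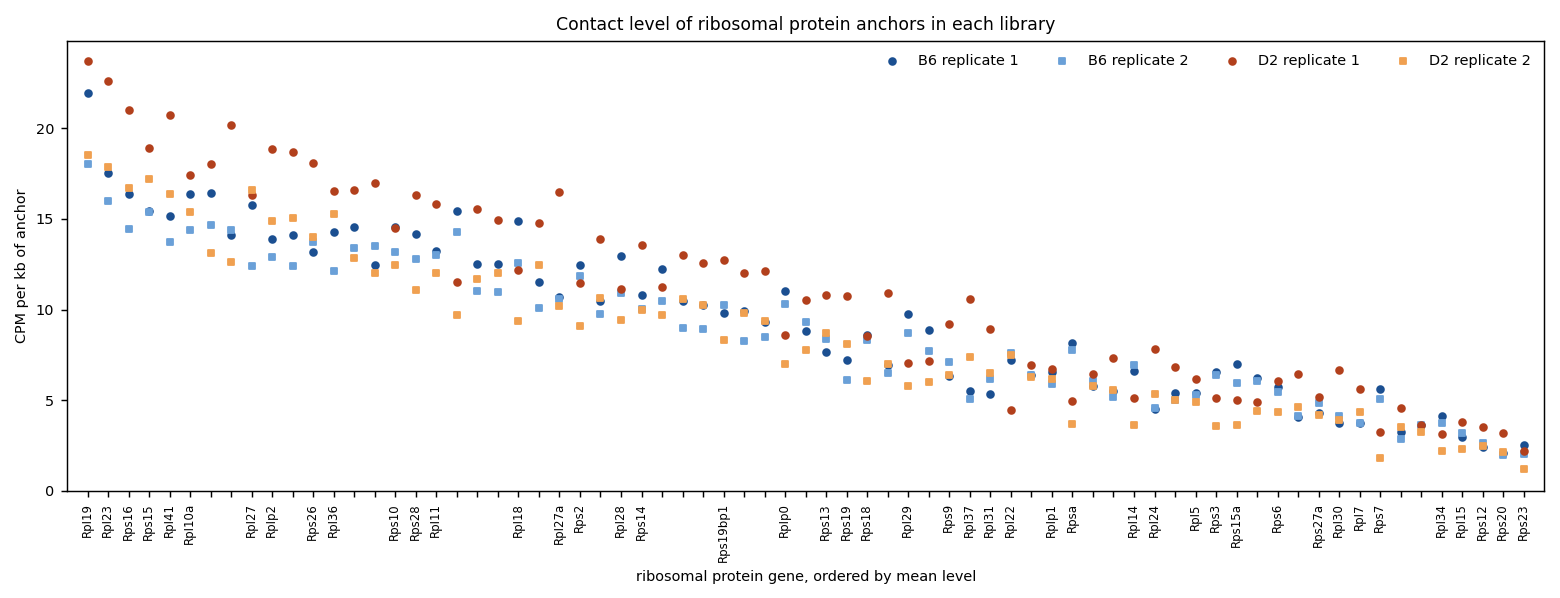
Contact level, in CPM per kb of anchor, of the 71 ribosomal protein genes with an anchor, ordered by the mean over the 4 libraries; points are single libraries (circles replicate 1, squares replicate 2, blue B6, red and orange D2). Levels run from about 20.6 for Rpl19 to 1.97 for Rps23, and D2 replicate 1 is the top point in 50 of 71 genes; only genes named in the text are labelled.

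D2 replicate 1 was the highest of the 4 libraries in 50 of 71 genes, B6 replicate 1 in 18, B6 replicate 2 in 2 and D2 replicate 2 in 1. D2 replicate 2 was the lowest in 34 genes and B6 replicate 2 in 27. The median over the 73 anchors was 9.73 and 8.70 CPM per kb in B6 and 10.8 and 8.12 in D2, so the D2 libraries enclosed the B6 libraries. For the other coding-start anchors the medians lay closer together, at 5.72 and 5.64 in B6 and 6.02 and 5.57 in D2.

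As a family, the ribosomal protein loops took shares of the contacts that overlapped between the strains. These loops held 39744 and 36542 counts in B6 and 40857 and 37002 in D2. They made up 1.37% and 1.30% of all counts in B6 and 1.48% and 1.26% in D2, or 1.34% ± 0.0438 (SD, n = 2) against 1.37% ± 0.155 (SD, n = 2). The difference had an exact permutation p of 1 (two-sided). With 2 libraries a strain no such test can go below 0.33, and 5 measures were compared, with Benjamini-Hochberg values of 0.834 to 1.

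The reach of these contacts overlapped between the strains, and that of other coding starts did not. The median count of ribosomal protein loops spanned 129.5 and 123.8 kb in B6 and 122.3 and 125.9 kb in D2, a difference of -2.56 kb with overlapping strains (two-sided exact permutation p = 0.667). At other coding starts the medians were 123.4 and 121.6 kb in B6 and 107.8 and 112.7 kb in D2, and the difference was -12.3 kb (exact permutation p = 0.33, the smallest possible). Within each library, the ribosomal protein loops thus reached 6.04 and 2.17 kb farther than the others in B6 and 14.5 and 13.1 kb farther in D2. The gap did not overlap between strains, at the same smallest p of 0.33 (exact permutation test), so the design cannot show that it differs.

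Most partners were start sites themselves. The share of counts whose partner anchor lay over a coding start was 67.2% and 66.2% in B6 and 69.8% and 67.9% in D2, or 66.7% ± 0.729 against 68.8% ± 1.32 (SD, n = 2 each). The strains did not overlap, with the smallest possible exact permutation p of 0.33. At other coding starts the share was 55.8% in B6 and 57.5% in D2 on average. The excess of the ribosomal protein loops was 10.9 percentage points in both B6 libraries and 11.2 and 11.5 in D2, without matching for anchor width. The loop with most counts of an anchor led to a coding start in 57 of 73 anchors.

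The authors' loop caller gave a value per loop and library that was taken as a q-value. Among ribosomal protein loops with a count, 46.5% and 44.8% in B6 and 46.7% and 44.4% in D2 had a value under 0.01. Among all loops with a count the share was 20.2% and 19.6% in B6 and 21% and 20.2% in D2. The share was thus higher for this family than for all loops in each of the 4 libraries, and the strains overlapped. It was compared neither with loops of other coding starts nor with anchors of like width.

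Between strains, single ribosomal protein anchors were called about as often as anchors at large, by their summed contacts. They had a median of 1722 counts, against 419 for the other coding-start anchors, and the shares below are not matched for counts. By edgeR's quasi-likelihood test at an adjusted p under 0.05, 9 of 73 anchors (12.3%) were called, 2 higher and 7 lower in D2. The background was 9.75% of all 51820 tested anchors, 2.67% higher and 7.08% lower, and 9.85% of those over a coding start. The median log2 difference of D2 over B6 was 0.09 for these anchors, 0.09 for the other coding-start anchors and 0.01 for all. An unadjusted p under 0.05 was found for 24 of 73 (32.9%), against 21.9% of all tested anchors and 24.8% of those over a coding start. The strains did not overlap in CPM for 38 of 73 (52.1%), against 50.6% of all tested anchors and 53.4% of coding-start anchors. The large subunit had 2 higher and 3 lower of 42 anchors with a median of 0.18, and the small subunit had 4 called of 30, all lower, with a median of 0.08. Whether the subunits differed was not tested.

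**Figure D2:**
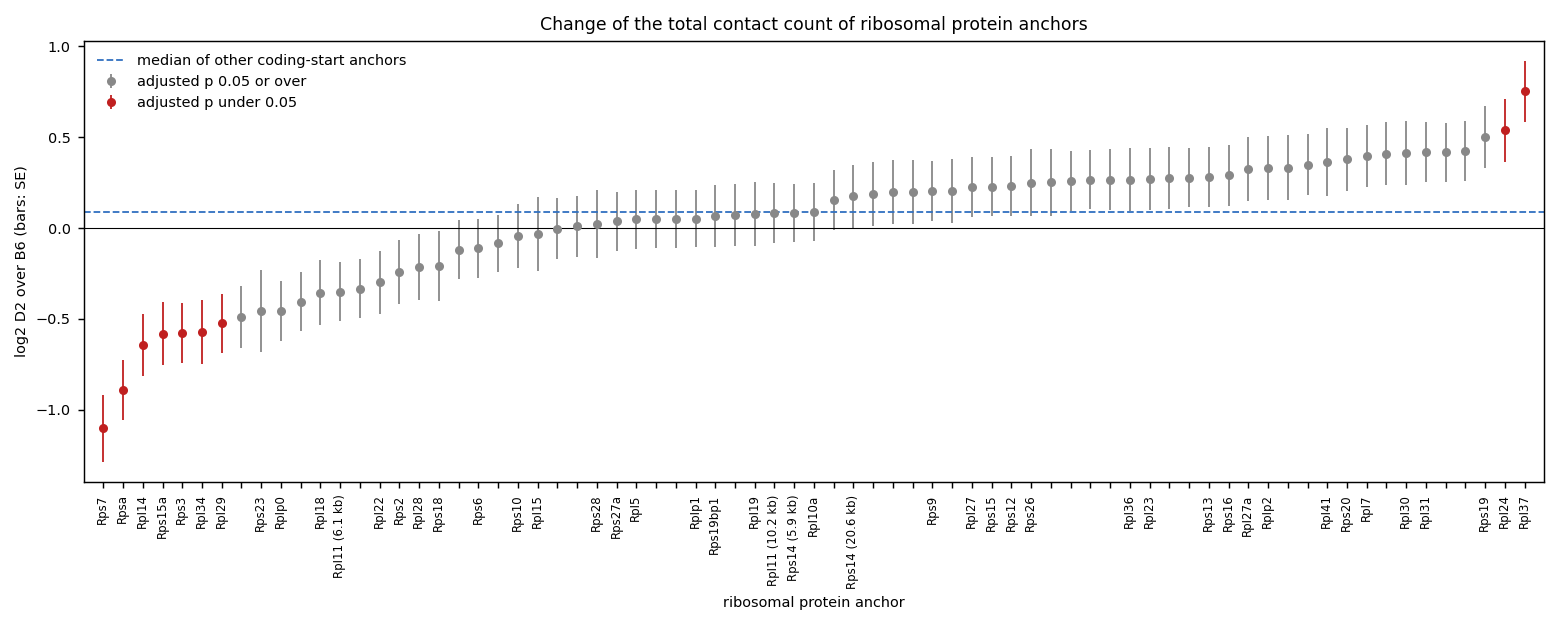
Log2 difference of D2 over B6 in the total contact count of each of the 73 ribosomal protein anchors, ordered by size, with the standard error of the edgeR fit as bars; red points have an adjusted p under 0.05 and the dashed line is the median of other coding-start anchors. Most anchors lie within 0.5 of 0, Rps7 lies lowest at -1.10 and Rpl37 highest at 0.75; genes named in the text are labelled, and the 2 anchors of Rpl11 and Rps14 are told apart by their widths.

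The small-subunit gene Rps7, whose product also binds the p53 regulator Mdm2, showed the strongest loss in D2. Its anchor (chr12:28625050-28640360, over no other start site) had 249 and 224 counts in B6 and 130 and 83 in D2, which is 85.8 and 77.7 CPM against 49.6 and 27.4. Both D2 libraries were below both B6 libraries, D2 replicate 2 the most. The log2 difference was -1.10 (SE 0.18, adjusted p 2.9e-05 by edgeR). Contacts of the surroundings were lower too: other loops lying wholly in the 1-Mb window centred on the anchor differed by -0.60 on the log2 scale, given here and below as a value without a test.

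Rpsa encodes a small-subunit protein that is also known as the laminin receptor. Its anchor (chr9:120122417-120137370) had 353 and 334 counts in B6 and 193 and 166 in D2, again without overlap. The log2 difference was -0.89 (SE 0.16, edgeR adjusted p 1.3e-04), while the other loops of its 1-Mb window differed by 0.04. Some 444 kb away on the same chromosome lies the large-subunit gene Rpl14 (chr9:120568462-120579859), with 218 and 228 counts in B6 and 153 and 124 in D2. It fell by 0.64 on the log2 scale (SE 0.17, edgeR adjusted p 0.0079), against -0.16 for its surroundings.

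The remaining lower anchors had smaller differences. Rps3, whose product lines the mRNA entry channel, had 289 and 280 counts in B6 and 204 and 165 in D2 (log2 -0.58, edgeR adjusted p 0.017). Rps15a had 743 and 630 against 483 and 405 (-0.58, edgeR adjusted p 0.022), in an anchor that it shares with Arl6ip1 and Smg1. For both, the counts of the 1-Mb window were lower in D2 by similar amounts, -0.47 around Rps3 and -0.69 around Rps15a. Rpl34 had 166 and 151 counts against 115 and 92 (-0.57, edgeR adjusted p 0.028), although its surroundings differed by 0.32 in the other direction. Rpl29 had 462 and 410 against 303 and 286 (-0.52, edgeR adjusted p 0.029) with 0.04 around it. The 7 lower anchors were thus of both kinds, some within a region of fewer D2 contacts and some not.

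The higher anchors were both of the large subunit. Rpl37 (chr15:5112648-5126874) had 228 and 208 counts in B6 and 394 and 317 in D2, or 78.6 and 72.2 CPM against 150.3 and 104.7. The log2 difference was 0.75 (SE 0.17, edgeR adjusted p 0.0016), and the counts of its 1-Mb window were higher by 0.60. Rpl24, whose product forms a bridge between the subunits, had 425 counts in each B6 library and 666 and 526 in D2 (0.54, edgeR adjusted p 0.037), in an anchor shared with Zbtb11. Its surroundings were higher by 0.52. The neighbourhoods of both anchors were thus higher in D2 as well.

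**Figure D3:**
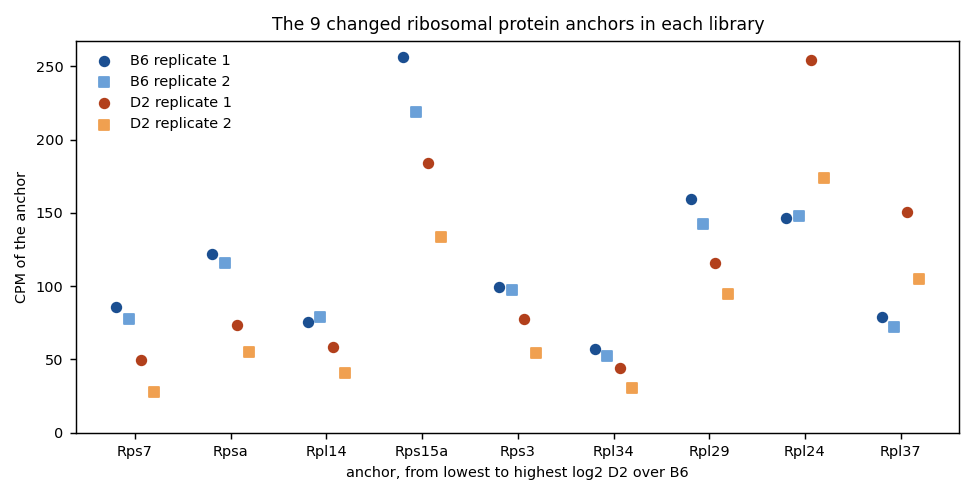
CPM of the 9 ribosomal protein anchors called between strains, one point per library, ordered from the lowest to the highest log2 difference. In each of the 9 the B6 and D2 points do not overlap, and D2 replicate 1 lies above D2 replicate 2 throughout, for example at 150.3 against 104.7 CPM for Rpl37.

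Among the anchors just outside the threshold were Rps19 (474 and 397 counts in B6, 638 and 556 in D2, log2 0.50, edgeR adjusted p 0.051) and Rplp0 (654 and 607 against 461 and 432, -0.46, 0.075). The strains did not overlap in these either. Rps19 is the gene most often mutated in Diamond-Blackfan anaemia. Rplp0 is the base of the ribosomal stalk, and its partners Rplp1 and Rplp2 had differences of 0.05 and 0.33 that did not pass the test.

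Other members with known special roles did not pass. Rpl5 and Rpl11, which join 5S RNA in a particle that also binds Mdm2, had log2 differences of 0.05 for Rpl5 and of 0.08 and -0.35 for the anchors of Rpl11. Rpl5 had 250 and 243 counts in B6 and 258 and 237 in D2, almost the same in all libraries. Rps6, the target of S6 kinase, had 283 and 268 counts in B6 and 270 and 224 in D2. Rps27a, which is made as a fusion with ubiquitin, had a log2 difference of 0.04. The standard errors of these 4 genes' fits were 0.16, so changes much smaller than the called ones could not be seen.

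Rpl22 was a case of 1 library set against the rest. Its anchor had 295 and 310 counts in B6 and 166 and 321 in D2, so that D2 replicate 2 matched B6 and D2 replicate 1 did not. The log2 difference of -0.30 was not called (edgeR adjusted p 0.33). It was 0.02 without D2 replicate 1 and -0.73 without D2 replicate 2. The counts of the 1-Mb window around it differed by -0.40 over both D2 libraries and by 0.05 in D2 replicate 2 alone.

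How many anchors were called depended on the libraries used. Without D2 replicate 1, 11 of 73 anchors were called, all lower in D2, with 5.1% of all tested anchors called and 4.47% called lower. Without D2 replicate 2, 34 were called, 31 higher and 3 lower, with 14.8% of all tested anchors called (7.37% higher, 7.41% lower) and, of those over a coding start, 21.1% (15.1% higher). Without B6 replicate 1 there were 4 calls, with 5.0% of all tested anchors called, and without B6 replicate 2 there were 2, with 5.45%. The median log2 difference was -0.050 without D2 replicate 1 and 0.30 without D2 replicate 2, against 0.04 and 0.12 for the coding-start anchors. Rpl37 and Rpl24 were not called without D2 replicate 1 (edgeR adjusted p 0.077 and 0.41), and Rpl14, Rps3, Rps15a, Rpl34 and Rpl29 were not called without D2 replicate 2 (0.069 to 0.28). Rps7 and Rpsa were called in the full comparison and in each of the 10 alternatives run.

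**Figure D4:**
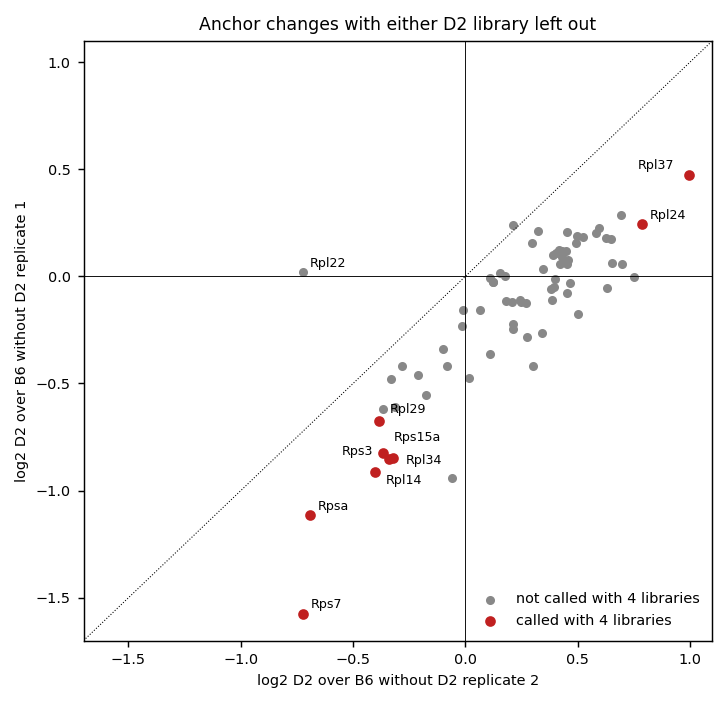
Log2 difference of D2 over B6 for the 73 ribosomal protein anchors without D2 replicate 2 (horizontal) against that without D2 replicate 1 (vertical); red points were called with all 4 libraries and the dotted line marks equal values. All points but those of Rpl22 (-0.73 and 0.02) and Rpl27 lie below the line, where D2 replicate 1 gave the higher value; Rps7 (-0.72 and -1.57) and Rpsa (-0.69 and -1.11) are low on both axes.

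Few single loops passed the test, which also found only 3.95% of loops changed 2-fold on simulated counts. Few calls therefore do not show that few loops changed. Of the 1565 tested ribosomal protein loops, 27 (1.73%) were called by edgeR, 7 higher and 20 lower in D2, in 16 genes. Of all 108034 tested loops, 1.45% were called, 0.492% higher and 0.957% lower, and of those at a coding start, 1.35%. The median log2 difference was 0.00 for these loops and 0.02 for all, and 189 of the 1565 (12.1%) had an unadjusted p under 0.05, against 11.7% of all. Of the 20 lower loops, 15 had a partner anchor that was itself called lower, 7 had the ribosomal protein anchor called lower, and 2 had neither. Of the 7 higher loops, 3 had the partner anchor called higher and 4 had neither anchor called. The lower loops had a median log2 difference of -1.62 and the higher ones of 1.27.

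Rps18 lies beside the H2-K genes of the mouse major histocompatibility complex and had 5 of the lower loops. The strongest joined its anchor (chr17:33879999-33957922) to one over H2-K2 (chr17:33977307-33983549) with 83 and 76 counts in B6, but only 23 and 19 in D2. Its log2 difference was -1.98 (SE 0.28, edgeR adjusted p 1.7e-08). A loop to an anchor without a start site, over 67.2 kb, had 34 and 27 counts against 6 and 5, and one to H2-K1, over 80.8 kb, had 26 and 20 against 9 and 2. The latter differed by -3.55 on the log2 scale without D2 replicate 1 and by -1.37 without D2 replicate 2, where it was not called (edgeR adjusted p 0.16), nor was it without B6 replicate 1 (0.18) or with no count minimum (0.11). Another, over 85.3 kb, had 9 and 16 against 0 and 1, and was not called without D2 replicate 1 (edgeR adjusted p 0.061). The anchor of Rps18 as a whole did not pass (-0.21, edgeR adjusted p 0.59), whereas the partner anchor over H2-K2 fell by 1.89 on the log2 scale (edgeR adjusted p 3.6e-10). The genome to which D2 reads were aligned is not given in the sources used here, and its part in these values was not tested. Daxx, Tapbp and other coding genes share the anchor of Rps18.

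The called loops of Rps7 led to neighbouring genes. Its loop to Rnaseh1 (chr12:28647164-28666335) had 97 and 77 counts in the B6 lines and 43 and 19 in D2, a log2 difference of -1.55 (SE 0.26, edgeR adjusted p 6.8e-06), and its loop to Trappc12 had 20 and 21 against 7 and 4 (-1.94, edgeR adjusted p 0.0069). The call to Trappc12 was lost without B6 replicate 1 (0.13), B6 replicate 2 (0.18) or D2 replicate 2 (0.14) and with no count minimum (0.39). The partner anchors were themselves called lower, by -0.96 over Rnaseh1 (edgeR adjusted p 1.6e-04) and -0.79 over Trappc12 (0.0032). All 8 tested loops of Rps7 had fewer counts in D2 relative to library size, with a median log2 difference of -0.91. All 11 tested loops of Rpsa did so too, with a median of -0.95, and 2 were called, to Csrnp1 and to Slc25a38, neither of which kept its call with any 1 library left out.

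Among the other lower loops, that of Rplp0 to Pxn had 63 counts in both B6 libraries and 28 and 21 in D2 (log2 -1.42, edgeR adjusted p 2.7e-04). Rpl28 had one to Isoc2a, with 37 and 40 against 17 and 10 (-1.57, edgeR adjusted p 0.0013), a call lost without B6 replicate 2 (0.095), without D2 replicate 2 (0.070), with no count minimum (0.055) and with DESeq2 (0.22). The D2 libraries lay below the B6 libraries in both. Single lower loops were also called for Rps2, Rpl14, Rpl18, Rpl34 and Rps15a, and each lost its call with at least 1 library left out.

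The higher loops belonged to Rpl7, Rpl27a, Rpl30, Rpl31 and Rpl36, none of whose anchors was called. Rpl31 had 29 and 30 counts with Cnot11 in B6 and 95 and 46 in D2 (log2 1.19, edgeR adjusted p 0.0028). D2 replicate 1 was far above D2 replicate 2 here, and without it the difference was 0.53 and was not called. Rpl30 showed the same kind of spread in its loop to Mtdh, with 14 and 10 counts against 46 and 15, but not in its loop to Erich5, with 10 in both B6 libraries and 28 in both D2 libraries (1.41, edgeR adjusted p 0.026). Rpl36 had 25 in both B6 libraries and 60 and 52 in D2 in a loop of 55.3 kb (1.09, edgeR adjusted p 0.017). Each of these higher loops lost its call without D2 replicate 1, without B6 replicate 1 and without B6 replicate 2. Rpl27a, with 6 in both B6 libraries and 25 and 16 in D2, rested on few counts.

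Without D2 replicate 1, 17 loops were called, all lower, and without D2 replicate 2, 32 were called, 20 higher and 12 lower. Without B6 replicate 1 there were 8 calls and without B6 replicate 2 there were 6, all lower, in settings that called 0.301% and 0.327% of all loops. For all loops 0.541% were called without D2 replicate 1 (0.435% lower) and 1.88% without D2 replicate 2 (1.08% higher, 0.793% lower). Of the 27 loops, 4 were called with each library left out in turn and 23 lost the call at least once. The 4 were those of Rps18 to H2-K2 and over 67.2 kb, of Rps7 to Rnaseh1 and of Rplp0 to Pxn. The loop of Rps18 to H2-K2 and that of Rps7 to Rnaseh1 were called in all 11 settings, whereas Rplp0 to Pxn was not called by DESeq2 (adjusted p 0.093).

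**Figure D5:**
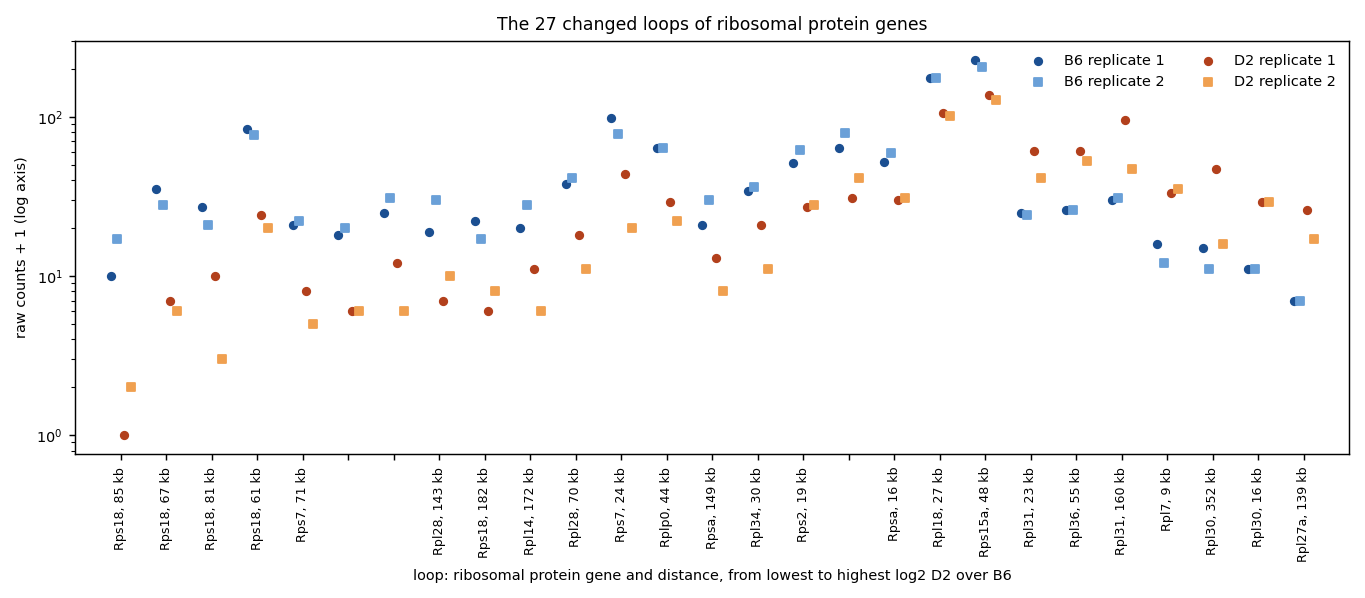
Raw counts plus 1 (log axis) of the 27 ribosomal protein loops called between strains, one point per library, labelled by gene and by the distance between anchor centres and ordered from the lowest to the highest log2 difference; loops of genes not named in the text have no label. The 20 loops from Rps18 over 85 kb to Rps15a over 48 kb are lower in D2 and the 7 on the right are higher, where D2 replicate 1 is well above D2 replicate 2 for Rpl31 over 160 kb and Rpl30 over 352 kb.

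Of the 10 loops with most counts, only Rps15a to Smg1 was called. The first was between 2 ribosomal protein anchors, Rps28 and Rps18, 103.1 kb apart on chromosome 17, with 287 and 260 counts in B6 and 330 and 259 in D2 (log2 0.05, edgeR adjusted p 0.97). Rpl41 and Rps26 on chromosome 10, 65.7 kb apart, had 169 and 192 in B6 and 291 and 210 in D2 (0.41, edgeR adjusted p 0.45). Rpl24 had 168 and 150 against 252 and 203 in its loop to Pcnp. The D2 counts were higher, with D2 replicate 1 the highest, and did not pass. Rps15a to Smg1 had 228 and 206 in B6 and 136 and 126 in D2 (-0.79, edgeR adjusted p 0.030). The call was lost with DESeq2 (0.13), without B6 replicate 1 (0.61) or B6 replicate 2 (0.39) and with totals within each chromosome (0.11). This loop lies within the region of lower contacts named above.

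Of the 9 loops between ribosomal protein anchors, those of Rpl11 and Rps14 joined the 2 anchors of 1 gene, with 98 and 192 counts in all. The 2 most contacted genes, Rpl23 and Rpl19, met each other with 22 and 21 counts in B6 and 36 and 24 in D2 (log2 0.41, edgeR adjusted p 0.68). Longer ones were thin. Rps13 and Rps15a, 1790 kb apart, had 28 counts over the 4 libraries, Rps9 and Rpl28 had 24, Rps10 and Rpl10a had 21 and Rpsa and Rpl14 had 16. Of these, the first 3 had enough counts to be tested and did not pass.

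The other genes of ribosome making and translation were read in the same way, with the same edgeR test at an adjusted p under 0.05, beside the 9.85% called among coding-start anchors. Mitochondrial ribosomal proteins, which build the ribosome of the mitochondrion, had 1 higher (Mrpl37, log2 0.67) and 2 lower (Mrpl20, -0.54, and Mrps23, -0.49) of 76 genes tested. Ribosome biogenesis factors had 5 higher and 1 lower of 34. Those higher were Nop10 (0.75), of the H/ACA particles that make pseudouridine, Wdr12 (0.79) and Pes1 (0.52), of the complex that matures the large subunit, Gnl3 (0.55), a nucleolar GTPase, and Pno1 (0.62), of the pre-40S particle. Ltv1, also of the pre-40S particle, was lower (-0.53). RNA polymerase I, which transcribes ribosomal RNA, had 2 lower of 9, its catalytic subunits Polr1a (-0.63) and Polr1b (-0.64). The TOR pathway and TOP control list had 1 lower of 11, Rheb (-0.52), the GTPase that activates mTOR.

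Of 30 translation factors, 0 were called by edgeR, with 9 at an unadjusted p under 0.05 (24.8% of coding-start anchors had such a p), and DESeq2 called 0. The medians of the log2 differences were 0.16 for mitochondrial ribosomal proteins, 0.19 for biogenesis factors, 0.03 for RNA polymerase I, 0.20 for translation factors and -0.11 for the TOR list, beside 0.09 over coding-start anchors and 0.09 for the ribosomal protein anchors. With the paralogs of the family included, 14 of 166 listed genes were called (8 higher). The balance of higher and lower calls depended on the D2 library left out. Most calls were lower in D2 without D2 replicate 1, and most were higher without D2 replicate 2. Leaving out either B6 library left fewer calls. DESeq2 called 0 of these genes in any of the lists.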

How the data were processed

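H3K27ac HiChIP was measured in 4 libraries of mouse embryonic stem cells, 2 lines each of B6 and D2. The deposited series table gives raw counts of read pairs per pair of anchors, with no normalization. The authors' files of single libraries hold the same counts (0 pairs differed) and a value from 0 to 1, taken as the q-value of the authors' loop caller. Per the submitters' processing notes, HiC-Pro 2.11.4, DESeq2 and the build mm10 were used. Their roles, and whether D2 reads were aligned to another genome than that of B6, are not given in the sources used here. If they were aligned to the B6 genome, D2 counts could be lowered where the strains differ in sequence, which was not tested. Every one of the 56562 anchors starts and ends at a GATC in GRCm38. The table covers 19 autosomes and distances from 5 kb to under 2 Mb, and holds 0 value columns that were left unused.

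The members and gene lists were chosen with earlier results of these data known. Loops, and anchors (summed over their loops), with at least 20 counts over the 4 libraries were tested on the whole table by edgeR 4.0.16 (limma 3.58.1, R 4.3.3) with TMM, a model with strain alone and p-values adjusted over everything tested (Benjamini-Hochberg, threshold 0.05). CPM used the library totals times the TMM factors (0.947 to 1.03 for anchors). Counts of the 1-Mb window centred on an anchor are those of loops with both anchors inside it, leaving out the anchor's own. On simulated counts for D2 against B6, edgeR found 53.6% of 196 anchors changed 2-fold and 88.1% of 193 changed 3-fold. Among loops it found 3.95% of 177 and 41.2% of 148. The simulation changed few features and gave all of a kind the same dispersion, so its Benjamini-Hochberg cut differs from that of the data. Tested alternatives were other size factors, DESeq2 1.42.0, a count minimum of none or 50, totals within each chromosome, a replicate block, each library left out, the outermost start only, and the members without those that are no subunits. Named were all called anchors (up to 15), the 10 highest and 5 lowest genes per kb, the 10 called loops with the smallest adjusted p, the 10 loops with most counts and 5 between members; the other loops and the members with known roles were named after their values were seen. Over all tested loops and anchors, same-numbered replicates did not deviate together (correlation of deviations -0.00141 over loops, 0.00944 over anchors). In both strains, though, the median level of the ribosomal protein anchors was higher in replicate 1. It was 9.73 against 8.70 CPM per kb in B6 and 10.8 against 8.12 in D2. Whether same-numbered libraries share more than a number was not tested for this family. Some members are counted but not reported by name here. SciPy 1.17.1 gave the exact permutation tests.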

Additional observations from a re-analysis of the deposited data

How the results depend on the processing

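The count of changed ribosomal protein anchors was 9 and became 3 with DESeq2, 3 with no count minimum, 15 (5 higher, 10 lower) with totals within each chromosome, and 2 to 34 with 1 library left out. The count of changed loops was 27 and became 2 with DESeq2 and 6 to 32 with 1 library left out; it was 18 with no count minimum. With a replicate block there were 13 changed anchors and 24 changed loops. The shares of all anchors and loops called are not given here for DESeq2, other count minima, totals within each chromosome or a replicate block. Whether the counts in those settings, and those of the lists below, moved with the whole table was thus not tested. The difference in median distance was 1.80 kb over loops with at least 20 counts, against -2.56 kb over all, and -5.38 to 0.27 kb with 1 library left out. The median log2 difference was -0.050 to 0.30 with 1 library left out. The strain difference in the share of counts was 0.031 percentage points, D2 minus B6. It changed sign, to -0.041 over loops with at least 20 counts, and ranged from -0.079 to 0.14 with 1 library left out. For the share of coding-start partners it was 2.13 points, and 1.2 to 3.06 with 1 library left out, always higher in D2. The largest moves were below the SD of the D2 libraries (0.155 and 1.32) but above that of the B6 libraries (0.0438 and 0.729). The count over the other pathway lists was 14 and, under alternatives chosen after seeing the data, became 0 with DESeq2, 1 with no count minimum, 27 with a replicate block, 26 with totals within each chromosome and 1 to 48 with 1 library left out. Over the 23 named anchors and 23 named loops and 10 settings, 379 results kept their side of the threshold, 16 passed it newly, 55 fell short and 0 reversed after being called. A result that was uncalled in the full comparison counts as kept where it stayed uncalled. DESeq2 and the count minimum of 50 gave no value for some of the named loops. The causes were not tested. There were 2 lines a strain and a median of 43 counts per tested ribosomal protein loop. On the simulated counts, whose setting differed from the data, few 2-fold changes of single loops were found.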

Other observations

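The paralogs that the rule left out were measured as well. Of 8, 6 had an anchor over a start site, and 2 were called by edgeR, both higher, beside 4.04% of coding-start anchors called higher. DESeq2 called 0 of them, and 3 had an unadjusted p under 0.05. Over all the pathway lists, these paralogs included, most calls made without D2 replicate 1 were lower in D2. Rpl39l, a testis-biased copy of Rpl39, had 216 and 198 counts in B6, below the 282 and 320 of D2 (log2 0.57, SE 0.16, adjusted p 0.012). Rpl36al, a copy of the X-linked Rpl36a, had 330 and 341 in B6, below the 516 and 432 of D2 (log2 0.55, SE 0.17, adjusted p 0.027). The D2 libraries were above the B6 libraries in both. Rpl3l lies in the anchor of Rps2, so its counts (1086 and 1024 in B6, 904 and 825 in D2) cannot be told apart from those of Rps2.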
